A study of Mus musculus with 8 samples.

Results

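CTCF ChIP-seq reads were examined at the loci of p53 (Trp53), of its inhibitors Mdm2 and Mdm4, and of 7 genes that p53 is known to activate, namely Sesn1, Sesn2, Btg2, Gadd45a, Ccng1, Bax and Zmat3. A CTCF site was assigned to a locus when its centre lay inside the gene body or within 10 kb of it, which gave 47 of the 104008 sites listed on mm9. This assignment used positions only and no read values, and every one of the 10 genes had at least 1 site. The genes themselves were chosen with earlier results of these data known. The cells were immortalised mouse embryo fibroblasts (iMEF) that carry a Cre-ER transgene and loxP sites in both alleles of Ash2l. The Ash2l protein belongs to the core of the KMT2 complexes, the methyltransferases of lysine 4 of histone H3. The +HOT group received 5 nM 4-hydroxytamoxifen for 7 days, which activates Cre-ER so that an exon of Ash2l is removed, and the -HOT group received the ethanol vehicle for the same time. Both groups carried the floxed alleles and the Cre-ER transgene, and both came from a line immortalised with a short hairpin RNA against p19Arf, a protein that restrains Mdm2. The +HOT cells stop proliferating according to the study, and by the sample labels they were passaged less often than the -HOT cells, so cell state and loss of Ash2l cannot be told apart from the treatment itself. Cell type markers could not be checked, since no expression was measured here.

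Each group had 2 CTCF immunoprecipitations, with 3126722 and 4221752 reads in sites for -HOT and 7653295 and 9280701 for +HOT. The 4 inputs were not analysed here, so the text speaks of reads and not of binding. All libraries are of 1 cell line, and the p-values given here cover the spread between these samples alone. The study describes them as technical replicates. In bulk chromatin, fewer cells with a bound site and less binding per cell cannot be told apart. Reads in the 12 sites inside Ash2l summed to 327 and 293 normalised reads in -HOT and to 144 and 321 in +HOT, which overlapped and does not check the deletion. Normalised reads are counts scaled to the mean effective size of the 4 libraries. The test was that of edgeR (quasi-likelihood), fitted across 99560 sites. They were called lost or gained at an adjusted p below 0.05 with a log2 fold change (log2FC, +HOT over -HOT) below -1 or above 1, and lower or higher at the adjusted p alone.

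p53 is a transcription factor that is kept at a low level by Mdm2, an E3 ubiquitin ligase that marks it for degradation, and by Mdm4, a relative of Mdm2 that blocks its transactivation domain. After stress it activates genes for cell cycle arrest, repair, metabolism and apoptosis, and it activates Mdm2 as well, which closes a feedback loop. In fibroblasts the pathway is best known for cell cycle arrest and senescence. CTCF is a zinc finger protein that binds insulators and promoters and anchors chromatin loops together with cohesin, through a long motif read by its central zinc fingers.

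The sequences under the sites that changed are shown first, since the results turn on them and they differ in how well they match the CTCF motif. A matrix of 20 positions for CTCF was started from 2240 matches to a preset CTCF consensus in the 5000 strongest sites of the table. It was then rebuilt from the 3888 best windows of these sites that scored well, with the most frequent base at each position as follows.
CTCF matrix: GTGGCCACCAGGGGGCGCTA
The best window of each site is given 5′ to 3′ in capitals with 5 flanking bases on each side, read from mm9 on the strand with the higher score, and these windows were chosen because the 3 lost and 2 gained sites carry the strongest fold changes of the loci. A score above 6.95 counted as a match, a level that 5.00% of shuffled site sequences passed.
Btg2, lost, chr1:135974190-135974219, minus strand: ccgtaTCAACCACAAGATGGACCCCatcat
Sesn1, lost, intron, chr10:41608368-41608397, minus strand: cagccATGACCACTAGGGTTCGTTTctaag
Sesn1, lost, upstream, chr10:41529669-41529698, minus strand: cctttCTCGACGTTTGGAGGCGCTGgtttg
Gadd45a, gained, chr6:66989164-66989193, minus strand: cacctCATGCCAGAAGAGGGCATCAgatcc
Sesn2, gained, chr4:132073083-132073112, minus strand: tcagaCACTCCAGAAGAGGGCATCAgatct
The lost sites scored 7.97 at Btg2, 4.43 at the Sesn1 intron and -1.16 upstream of Sesn1, so only the Btg2 window passed the threshold. Both gained windows passed it, with 15.8 at Gadd45a and 13.8 at Sesn2. A match is a description of the letters, and no match says only that these letters are not in the site. Across the table, 60.8% of all lost and 90.0% of all gained sites held a match, against 86.3% of all sites. Of the 47 sites of the p53 loci, 41 held one (87.2%). The 6 sites without a match were 4 sites of Sesn1, 1 of Trp53 and 1 of Zmat3.

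The 2 gained windows shared a run of 20 bases.
Shared run: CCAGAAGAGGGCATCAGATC
Searched on both strands, this run lay in 8 of the 47 sites (17.0%) and in 10.6% of all sites, and in 12.7% of all sites with up to 100 mean normalised reads, where all 8 belong. It was rarer among all gained sites of the table (5.93%) and among all lost ones (4.23%) than among sites that were not called (10.8%). Beside the 2 gained sites, the run lay in 2 sites of Mdm2, 2 of Mdm4, 1 of Bax and 1 of Sesn2. None of these 6 was called, and 1 of them, downstream of Sesn2, had too few reads to be tested.

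The main sites of p53 and its inhibitors are shown for comparison, since their windows match the matrix well while their reads changed by less than 2-fold.
Trp53, upstream, chr11:69392983-69393012, plus strand: cctccCTGGCCTGCAGAGGGCGCATaattt
Mdm2, start site, chr10:117147781-117147810, minus strand: tctccGCGGACGGTAGGGGGCGCTCgtcac
Mdm4, downstream, chr1:134879459-134879488, minus strand: cttggTCGCCCACCAGAGGGCACTAgtaac
Their scores were 17.5, 17.6 and 22.3, and they shared 14, 14 and 15 of 20 positions with the matrix. All 12 sites of the loci with over 100 mean normalised reads held a match, compared to 29 of 35 weaker sites. Over the whole table the shares were 95.5% and 84.0%, so this split is not particular to the loci. The matrix was itself built from the strongest sites, which favours matches at strong sites.

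Over the 10 loci, CTCF reads were lost at 3 sites, all within 3000 bp of a transcription start site, and gained at 2 weak sites. Btg2 and Sesn1 held the lost sites, and Gadd45a and Sesn2 the gained ones. With scaling along site strength, the upstream Sesn1 site was not lost and a site 4858 bp upstream of Trp53 was. Of 46 tested sites, 3 were lost and 2 gained, where 1.50% of all tested sites were lost and 3.89% gained. At the adjusted p alone 11 sites were lower and 2 higher, where the shares of all sites were 9.08% and 9.45%. Both +HOT libraries lay below both -HOT libraries at 24 sites, compared to 27.2% of all sites. They lay above them at 8 sites, compared to 29.6% of all sites, and the groups overlapped at the other 14. The median log2FC was -0.19 over the 46 sites and 0.01 over all sites. Summed over the 47 sites, normalised reads were 3495 and 3742 in -HOT and 2973 and 2836 in +HOT (3619 ± 175 and 2905 ± 97.2, SD, n = 2). This sum was lower by a log2 ratio of -0.32, without overlap, and by -0.17 with scaling along site strength or -0.14 with GC content as well, although 2 against 2 libraries cannot go below p = 0.333 in an exact permutation test. Called sites held 3.63% of these reads, so the sum mostly follows the strong sites.

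**Figure D1:**
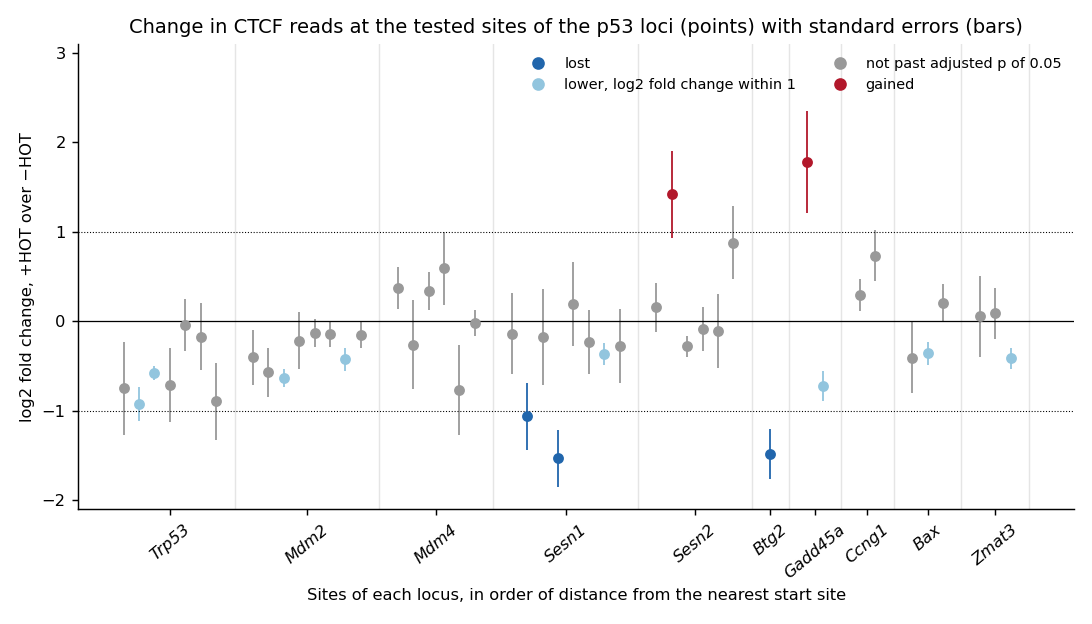
The log2 fold change of +HOT over -HOT (vertical axis, with 1 SE as bars) is shown for the 46 tested CTCF sites, grouped by gene along the horizontal axis and coloured by their call, with dotted lines at -1 and 1. The 3 lost sites lie at Sesn1 and Btg2, the 2 gained sites at Sesn2 and Gadd45a, and all tested sites of Trp53 and Mdm2 lie below 0.

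At Trp53 (ENSMUSG00000059552.6, chr11:69393861-69405375, plus strand) the strongest CTCF site of all 10 loci lay just before the gene, and it was lower in +HOT. All 7 sites of the locus had a log2FC below 0, from -0.92 to -0.04, and 2 were lower at the adjusted p. The strongest site (chr11:69392610-69393885) had its centre 614 bp upstream of the start, inside Wrap53, the neighbouring gene that is transcribed in the opposite direction. It held 494 and 575 normalised reads in -HOT and 362 and 348 in +HOT. The +HOT libraries were both lower, and close to each other. The log2FC was -0.58 (SE 0.08, edgeR adjusted p = 2.87e-07), but it was near 0 with scaling along site strength (-0.0012, adjusted p = 1.00) or strength and GC content (-0.017, adjusted p = 0.934).

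A further site in Wrap53, 4858 bp upstream of Trp53 (chr11:69388689-69389318), was added after its values were seen. It held 103 and 99.5 normalised reads in -HOT and 57.3 and 49.1 in +HOT. This was 1.89-fold lower in +HOT without overlap (log2FC -0.92, SE 0.19, edgeR adjusted p = 0.000321), short of the fold needed for a loss. The site did count as lost with scaling along site strength (log2FC -1.11, edgeR adjusted p = 2.23e-05) or strength and GC content (-1.15, adjusted p = 1.37e-05). Summed over the locus, Trp53 had 752 ± 56.7 normalised reads in -HOT and 495 ± 16.8 in +HOT (SD, n = 2), a log2 ratio of -0.60. Within the gene, the intron site 990 bp after the start was weak, with 22.1 and 21.9 against 18.2 and 7.80 normalised reads (edgeR adjusted p = 0.252).

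Mdm2 (ENSMUSG00000020184.8, chr10:117125944-117147814, minus strand) carried 8 sites, all with a log2FC below 0, from -0.63 to -0.13, and 2 of them lower. The strongest covered the start of the gene and its UTR (chr10:117147482-117148037, centre 8 bp after the start). It held 302 and 398 normalised reads in -HOT and 230 and 213 in +HOT. Both +HOT libraries were lower (log2FC -0.63, SE 0.10, edgeR adjusted p = 5.03e-06), but the sign turned when libraries were scaled along site strength and GC content (log2FC 0.29, adjusted p = 0.0308). This site had 70.5% GC and was CpG-island-like. The second lower site, just past the end of the gene (chr10:117125201-117126039) and also named after its values were seen, held 181 and 187 against 135 and 140 normalised reads (log2FC -0.42, SE 0.13, edgeR adjusted p = 0.0137). This call did not hold with scaling along site strength (-0.23, adjusted p = 0.258) or with DESeq2 (adjusted p = 0.101), nor without the -HOT library R1 (0.0797) or R3 (0.0699) or the +HOT library R1 (0.0537). Between these 2 sites, 3 in introns had log2FC from -0.21 to -0.13 and did not pass the test.

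Mdm4 (ENSMUSG00000054387.6, chr1:134886422-134921943, minus strand) had no CTCF site within 3000 bp of a start and none of its 6 sites passed the test. The strongest, past the end of the gene (chr1:134879111-134879907), held 140 and 119 normalised reads in -HOT and 126 and 133 in +HOT. The groups overlapped, with a log2FC of -0.02 (SE 0.15, edgeR adjusted p = 0.963), and the sign turned in 5 of 12 refits with other settings. The 5 intron sites ranged from -0.77 to 0.59 in log2FC, and 3 of them held more reads in both +HOT libraries than in either -HOT library. Of all tested sites, 29.6% did so. The summed reads of the locus were 281 ± 3.71 and 308 ± 2.52 normalised reads, and Mdm4 and Ccng1 were the only loci with more summed reads in +HOT.

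**Figure D2:**
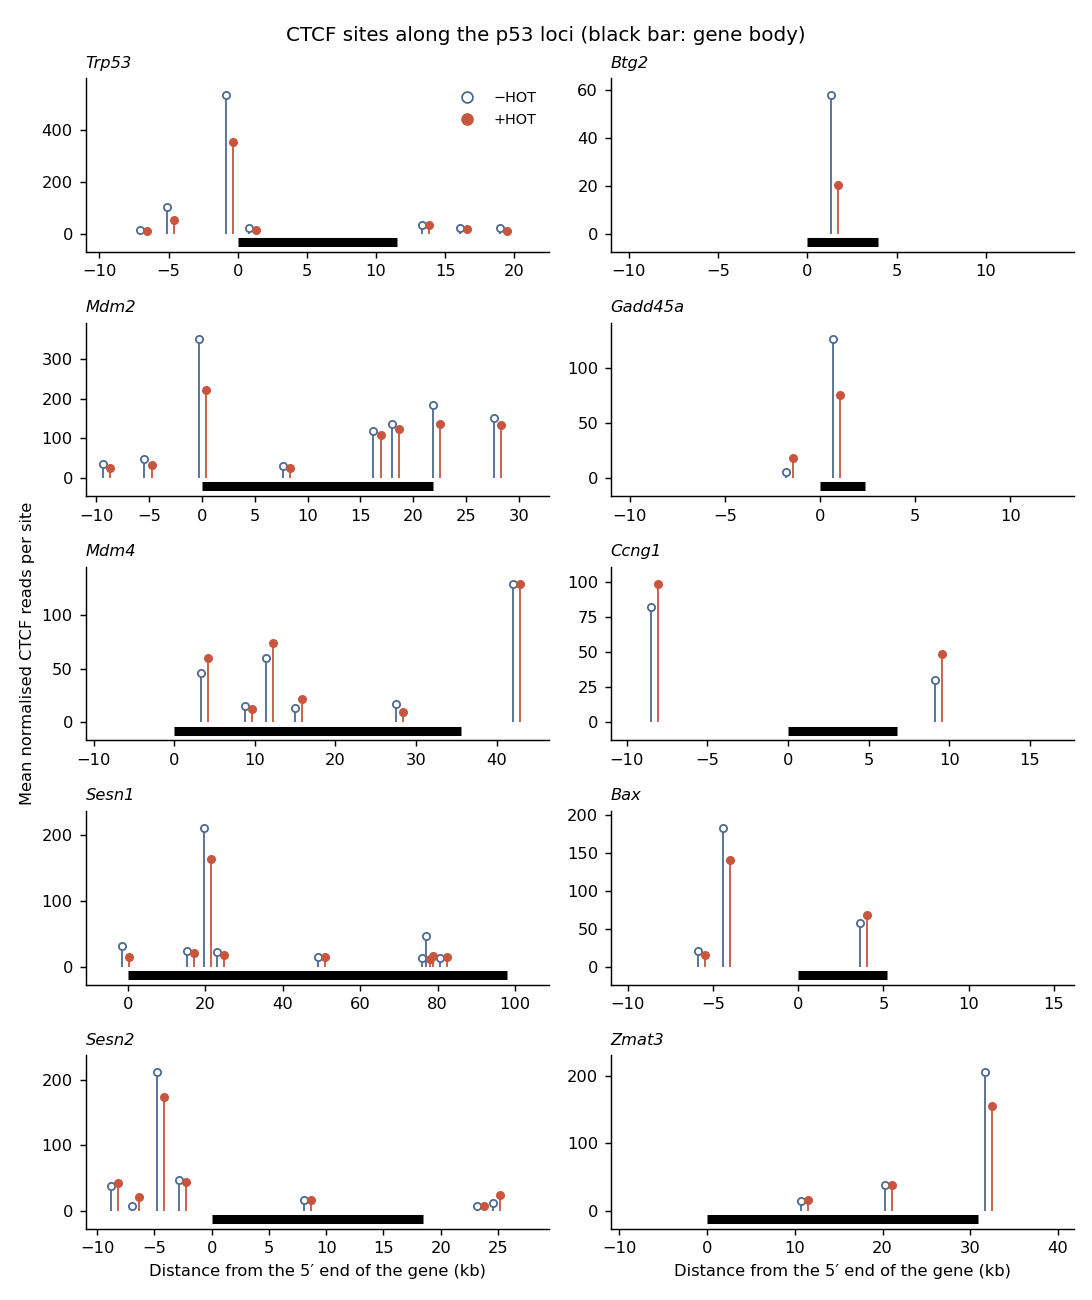
Mean normalised CTCF reads of each site (vertical axis) are plotted against the distance of the site from the 5′ end of its gene in kb (horizontal axis), for -HOT as open and +HOT as filled circles, with the gene body as a black bar. Mdm2 has its strongest site at the start, and Trp53 has its own just upstream of the start. Like that of Trp53, the strongest sites of Mdm4, Ccng1, Bax, Sesn2 and Zmat3 lie outside the gene body.

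Sesn1 (ENSMUSG00000038332.6, chr10:41530380-41628230, plus strand) encodes a sestrin, one of the p53-induced proteins that restrain mTORC1 signalling, and it held 2 of the 3 lost sites. The clearer one lay in an intron, 1119 bp after the start of a shorter transcript (chr10:41608203-41608525). It held 50.0 and 41.8 normalised reads in -HOT and 15.6 and 16.4 in +HOT. The +HOT libraries were 2.89-fold lower without overlap (log2FC -1.53, SE 0.31, edgeR adjusted p = 0.000249). It remained lost in all 12 refits with other settings, with log2FC from -1.65 to -1.39.
Its central 200 bases are shown because the site was lost without holding a CTCF match, with the best window in capitals, on the plus strand from chr10:41608264-41608463.
Sesn1 intron: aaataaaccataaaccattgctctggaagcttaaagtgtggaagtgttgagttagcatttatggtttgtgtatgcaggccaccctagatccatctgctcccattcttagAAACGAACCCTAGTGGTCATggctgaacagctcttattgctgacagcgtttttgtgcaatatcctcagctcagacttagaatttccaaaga
This stretch held 42.0% GC and 2 CpG dinucleotides.

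The second lost site of Sesn1 lay 744 bp upstream of its start, inside Cep57l1 (chr10:41529503-41529769), and was CpG-island-like. It held 20.6 and 41.8 normalised reads in -HOT and 11.1 and 17.9 in +HOT. The -HOT libraries differed 2-fold from each other (31.2 ± 15.0 against 14.5 ± 4.86, SD, n = 2; log2FC -1.06, SE 0.38, edgeR adjusted p = 0.0383). Without the -HOT library R3 the log2FC was -0.54 (adjusted p = 0.599), and without the +HOT library R1 it was -0.72 (adjusted p = 0.216). With total counts the adjusted p was 0.0530, and with scaling along site strength 0.0525. The strongest site of the locus, in an intron (chr10:41550595-41551106), held 219 and 201 against 184 and 142 normalised reads. It was lower by a log2FC of -0.36 (SE 0.12, edgeR adjusted p = 0.0287), a call that did not hold in 6 of 12 refits. Among these were scaling along site strength (-0.10, adjusted p = 0.666), total counts (0.0590) and DESeq2 (0.152). The other 5 sites of Sesn1 had log2FC from -0.27 to 0.20 and none passed the test.

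Sesn2 (ENSMUSG00000028893.8, chr4:132047947-132066416, minus strand), a second sestrin gene, had a gained site in place of a lost one. It lay 6651 bp upstream (chr4:132072906-132073229) and held 8.83 and 5.97 normalised reads in -HOT and 21.5 and 19.5 in +HOT. All +HOT libraries were higher, by 2.68-fold (log2FC 1.42, SE 0.48, edgeR adjusted p = 0.0296). The raw counts behind it were 6 and 3 in -HOT and 33 and 25 in +HOT. The call was lost when any 1 of the 4 libraries was left out, with adjusted p from 0.0717 to 0.190. The strongest site of the locus, 4462 bp upstream (chr4:132070628-132071129), held 215 and 209 against 188 and 160 normalised reads and did not pass the test (log2FC -0.28, SE 0.12, edgeR adjusted p = 0.0905). The site nearest to the start, 2551 bp upstream, overlapped between the groups with 50.0 and 43.8 against 49.5 and 39.0 normalised reads (log2FC -0.08, edgeR adjusted p = 0.871), and its sign turned without the -HOT library R1 or the +HOT library R3. The summed reads of Sesn2 overlapped between the groups.

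Btg2 (ENSMUSG00000020423.6, chr1:135971747-135975697, minus strand) encodes an antiproliferative protein of the BTG/TOB family that acts on mRNA deadenylation, and its only site was lost. The site lay over a coding exon, 1516 bp after the start (chr1:135974018-135974345). It held 54.4 and 61.7 normalised reads in -HOT and 22.1 and 18.7 in +HOT. Both +HOT libraries were well below both -HOT libraries, by 2.79-fold (log2FC -1.48, SE 0.28, edgeR adjusted p = 8.35e-05). It remained lost in all 12 refits, with log2FC from -1.65 to -1.37.
The central 200 bases of this site are shown because it is the only CTCF site of the gene, on the minus strand, which is the coding strand of Btg2, from chr1:135974081-135974280, with the best window in capitals.
Btg2 coding exon: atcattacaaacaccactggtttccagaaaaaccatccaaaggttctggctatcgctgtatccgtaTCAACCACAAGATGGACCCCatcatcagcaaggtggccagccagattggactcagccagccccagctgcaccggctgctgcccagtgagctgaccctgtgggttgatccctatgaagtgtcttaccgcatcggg
The stretch held 54.0% GC, and its window shared 9 of 20 positions with the matrix.

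Gadd45a (ENSMUSG00000036390.6, chr6:66985090-66987451, minus strand) encodes a stress sensor that inhibits the kinase CDK1 and takes part in DNA repair, and its 2 sites moved in opposite directions. The site over an exon in the gene body, 831 bp after the start (chr6:66986333-66986805), held 115 and 137 normalised reads in -HOT and 77.5 and 73.3 in +HOT. It was lower in both +HOT libraries (log2FC -0.72, SE 0.17, edgeR adjusted p = 0.00131) and remained so in all 12 refits. The site 1670 bp upstream, in E230016M11Rik (chr6:66988937-66989203), held 4.41 and 5.97 normalised reads in -HOT and 17.6 and 17.9 in +HOT. It was gained by 3.43-fold (log2FC 1.78, SE 0.57, edgeR adjusted p = 0.0200), on counts of only 3 and 3 in -HOT and 27 and 23 in +HOT. The call was lost when any 1 library was left out, with adjusted p from 0.0670 to 0.226. The difference between the sites was not tested. The larger site set the sum of the locus, 131 ± 17.1 and 93.2 ± 2.70 normalised reads.

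**Figure D3:**
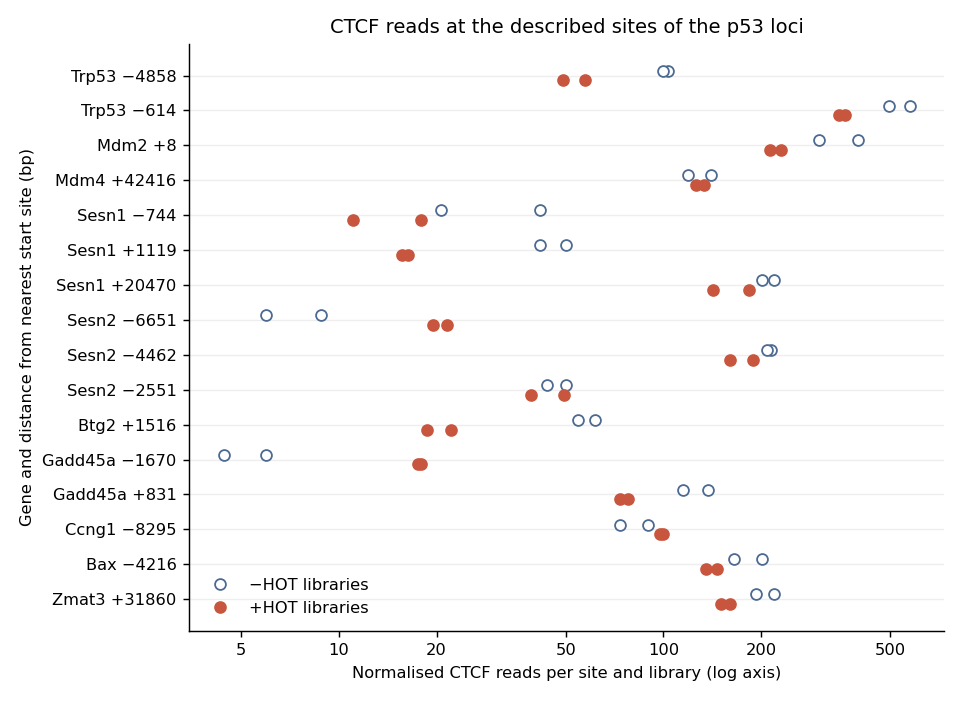
Normalised CTCF reads per library (horizontal log axis) at the 16 described sites, labelled by gene and distance from the nearest start in bp, with open circles for the 2 -HOT and filled circles for the 2 +HOT libraries. The groups are separate at every site drawn but those of Mdm4 and of Sesn2 at -2551, and the gained sites of Sesn2 and Gadd45a are the weakest ones in -HOT.

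Ccng1, Bax and Zmat3 had no CTCF site within 3000 bp of a start. Ccng1 (ENSMUSG00000020326.7, chr11:40562054-40568813, minus strand) encodes cyclin G1, which recruits the phosphatase PP2A to Mdm2. Its stronger site, 8295 bp upstream (chr11:40576878-40577339), held 73.6 and 89.6 against 99.6 and 97.5 normalised reads, and the weaker one downstream held 23.5 and 35.8 against 43.0 and 53.8. Both +HOT libraries were higher at both sites, but neither passed the test (log2FC 0.29, SE 0.18, edgeR adjusted p = 0.279, and log2FC 0.73, SE 0.28, adjusted p = 0.0605). The weaker site was higher with total counts (adjusted p = 0.0457) and without the +HOT library R1 (0.0260), and its log2FC was 0.41 without the -HOT library R1 (adjusted p = 0.601).

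Bax (ENSMUSG00000003873.9, chr7:52717065-52722268, minus strand), a pore-forming protein of the mitochondrial outer membrane, had its strongest site 4216 bp upstream (chr7:52726112-52726856). It held 165 and 201 normalised reads in -HOT and 146 and 136 in +HOT, and was lower by a log2FC of -0.35 (SE 0.13, edgeR adjusted p = 0.0451). This call did not hold with total counts (adjusted p = 0.0864) or with scaling along site strength (0.497), nor without the -HOT library R3 (0.406) or the +HOT library R3 (0.160). The site in its intron overlapped between groups, with 63.3 and 51.8 against 63.2 and 71.8 normalised reads.

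Zmat3 (ENSMUSG00000027663.6, chr3:32233718-32264600, minus strand) encodes a zinc finger RNA-binding protein. Its strongest site, past the end of the gene (chr3:32232244-32232800), held 219 and 193 normalised reads in -HOT and 161 and 151 in +HOT. It was lower by a log2FC of -0.41 (SE 0.12, edgeR adjusted p = 0.00989), but not with scaling along site strength (-0.17, adjusted p = 0.412) or with DESeq2 (adjusted p = 0.0947). Without the -HOT library R1 its log2FC was -0.32. Its 2 intron sites overlapped between groups, with log2FC of 0.09 and 0.06.

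The strong sites were compared with all sites of like strength. All 12 sites with over 100 mean normalised reads had a log2FC below 0 and 7 were lower, where 76.6% of all such sites were below 0 and 29.8% lower. With libraries scaled along site strength, 11 of the 12 had a log2FC below 0 and 1 was lower. The median over the 12 was -0.36, and -0.22 over all such sites. Over all loci 4 of the 11 lower sites remained lower with this scaling, namely those of Btg2, the Sesn1 intron, Gadd45a at 831 bp and Trp53 at 4858 bp upstream. The Mdm2 start moved from -0.63 to -0.21 (adjusted p = 0.154). In the band from 160 to 320 reads, the median log2FC was -0.31 over all 8723 sites and -0.39 over 6 sites of the p53 loci. In the band from 40 to 80 reads both medians were above 0, at 0.20 over 5 sites of the loci and 0.26 over all 17768. Up to 20 reads the median was -0.15 over the loci and -0.0048 over all, and from 80 to 160 reads -0.13 and -0.040. The gap was widest in the band from 20 to 40 reads, where the median was 0.10 over all 27358 sites and -0.22 over 12 sites of the loci, of which 10 lay below the median of all.

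**Figure D4:**
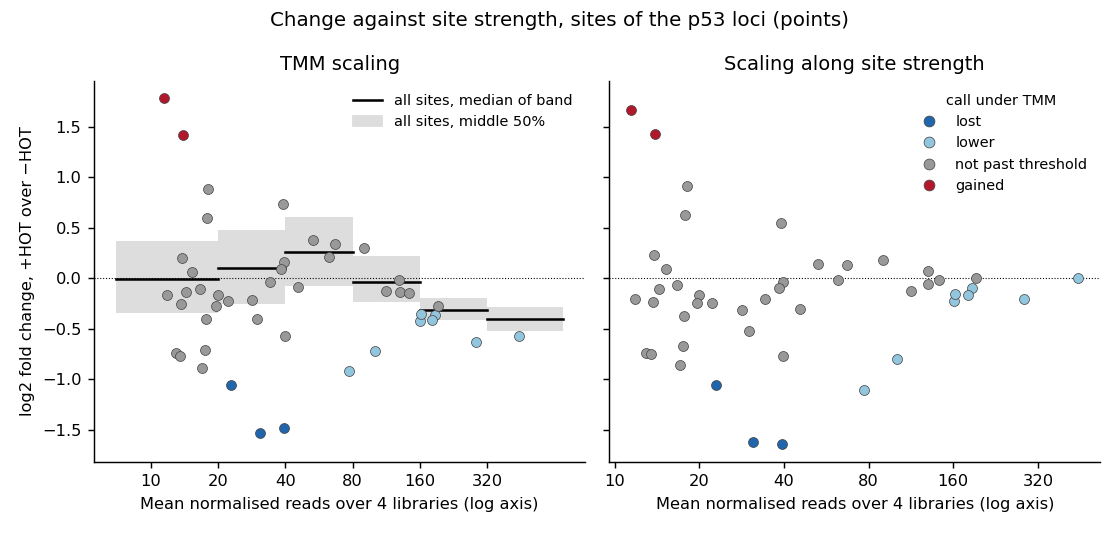
The log2 fold change (vertical axis) is plotted against the mean normalised reads of a site (horizontal log axis) for the tested sites of the p53 loci, with TMM scaling on the left and scaling along site strength on the right, coloured by the call under TMM. On the left, black lines and grey boxes give the median and the middle 50% of all sites per band, and the strong sites of the loci follow the lower medians at 160 reads and above, while the 3 lost sites lie far below theirs and stay below -1 on the right.

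Promoter sites were compared with those of other genes of the pathway. The 10 promoter sites of the loci belonged to 6 of the 10 genes, and 44.0% of 22380 protein-coding genes had a CTCF site within 3000 bp of a start. Of these 10 sites, 3 were lost and 1 gained, where 6.01% of all promoter sites were lost and 1.29% gained. Including those, 6 were lower and 1 higher, compared to 24.0% and 3.53% of all promoter sites. The median log2FC was -0.67 over the 10 sites and -0.28 over all promoter sites. Below 0 lay 9 of the 10, compared to 71.7% of all promoter sites. Away from promoters, 36 tested sites held no lost and 1 gained site, close to the 0.564% and 4.43% of all such sites, with a median of -0.15 compared to 0.07 for all such sites. The sets were not defined alike. For the loci only starts of the member gene counted, and for all sites the nearest start of any gene. Some sites of the loci counted as away may therefore lie near the start of a neighbouring gene.

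Among 13 regulators and relatives of p53, 12 had a promoter site, and 2 of their 20 sites were lost, none gained, 6 lower and 2 higher, with a median log2FC of -0.39. The lower ones were 30.0% of the sites, close to the 24.0% of all promoter sites, and 6.01% of all promoter sites were lost and 3.53% higher. The lost sites belonged to Ppm1d (chr11:85125696-85126073), which encodes the phosphatase WIP1 that switches off the p53 response, and to Rfwd2 (chr1:161163195-161163516), which encodes the p53 ubiquitin ligase COP1. Ppm1d held 113 and 95.5 against 43.6 and 39.8 normalised reads (log2FC -1.33, SE 0.20, edgeR adjusted p = 1.54e-06). Rfwd2 held 44.1 and 41.8 against 16.3 and 20.3 (log2FC -1.24, SE 0.31, edgeR adjusted p = 0.00271), a call that did not hold without the -HOT library R1 (log2FC -1.21, adjusted p = 0.0600). At both the +HOT libraries lay below the -HOT libraries by over 2-fold. Cdkn2a, which encodes p19Arf and was named after its values were seen, had a site at each of 2 start sites. These held 209 and 245 against 184 and 161 normalised reads (log2FC -0.38, edgeR adjusted p = 0.0162) and 140 and 155 against 110 and 112 (log2FC -0.40, edgeR adjusted p = 0.0422). Over all sites from 160 to 320 reads, the band of the first, the median log2FC was -0.31. From 80 to 160 reads, the band of the second, it was -0.040.

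Among 20 further p53 targets, 12 had a promoter site, and 1 of their 24 sites was lost, none gained, 10 lower and none higher, with a median log2FC of -0.41. The lost share of 4.17% was no higher than the 6.01% of all promoter sites, and 24.0% of those were lower. The lost site was that of Dram1, an autophagy gene, 1572 bp upstream of its start (chr10:87843200-87843595). It held 82.4 and 61.7 normalised reads in -HOT and 23.4 and 32.8 in +HOT. This was a log2FC of -1.40 (SE 0.25, edgeR adjusted p = 3.16e-05). The site nearest to the start of Dram1 did not pass the test (log2FC -0.32, edgeR adjusted p = 0.0505). Of 6 paralogues of the members, 5 had a promoter site, and of their 8 sites none was lost or gained and 5 were lower, with a median log2FC of -0.68. The smallest p was at Gadd45b, 1168 bp upstream of its start, with 493 and 494 against 367 and 328 normalised reads (log2FC -0.50, SE 0.08, edgeR adjusted p = 7.46e-06), and the sign there turned with scaling along site strength (log2FC 0.059). In all, 29 of the 39 genes of these lists had promoter sites, of which 3 of 52 were lost (5.77%), none gained, 21 lower (40.4%) and 2 higher (3.85%). The lost and higher shares were near the 6.01% and 3.53% of all promoter sites. The lower share was not compared at like strength. Median normalised reads per site were 55.2 over the 52 sites and 38.7 over all promoter sites. By list they were 84.4 for the further targets, 36.3 for the regulators and 115 for the paralogues. Of all sites with over 100 reads, 29.8% were lower.

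**Figure D5:**
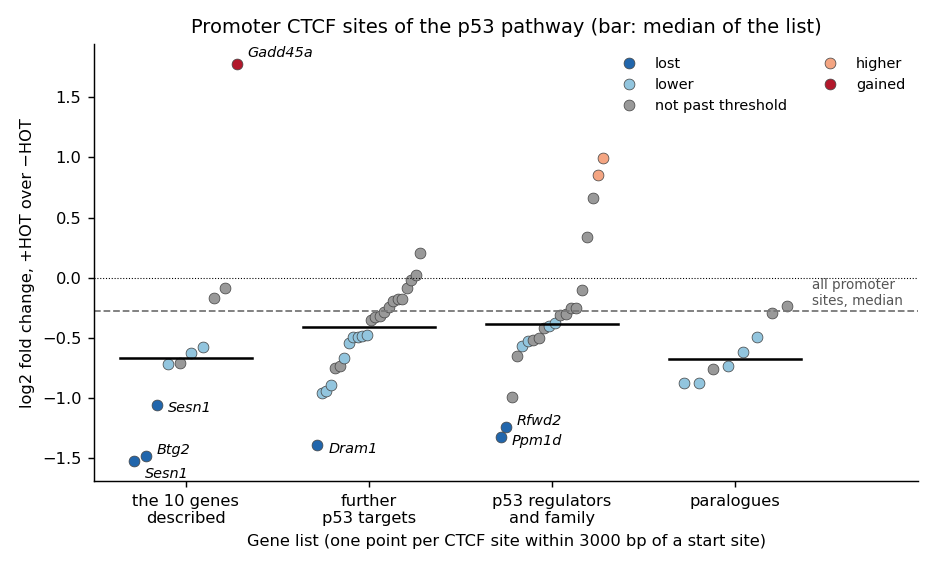
The log2 fold change of each CTCF site within 3000 bp of a start (vertical axis, 1 point per site) is shown for the 10 genes and for 3 further lists of the p53 pathway (horizontal axis), with the median of each list as a bar and that of all promoter sites as a dashed line. Lost sites carry their gene name, and the medians run from -0.68 for the paralogues to -0.39 for the regulators, below the -0.28 of all promoter sites. The lists and all promoter sites were not matched for strength.

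The p53 response element was searched in the same sequences, as a pair of 10-base units with a spacer of up to 13 bases, on both strands. Each unit had to match RRRCWWGYYY at every base (R is A or G, W is A or T, Y is C or T). Elements with any mismatch were therefore not counted. None of the 47 sites held a full element, and 103 of all sites did (0.0990%). A single unit lay in 5 of the 47 sites and in 10.9% of all sites, among them the strongest site of Trp53 and the start site of Mdm2. Within the 10 loci, 1 full element was found, in Zmat3, 1338 bp after its start and 9741 bp from the nearest CTCF site.
Zmat3 element, chr3:32263253-32263272, plus strand: AGACATGCCTGGGCTTGTTT
All bases are in capitals because both units without a spacer fill the stretch. A full element lay within 3000 bp of a start in 1.79% of protein-coding genes. Binding of p53 was not measured, and nothing on it follows from a match or its absence.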

How the data were processed

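CTCF was measured by ChIP-seq in 2 immunoprecipitations per group, with groups taken from the sample titles. The authors trimmed reads with Trim_Galore, mapped them to mm9 with BWA, removed duplicates and blacklisted regions, and called peaks with MACS2; neither the versions nor the counting tool are named in the sources read. The deposited values used here are raw read counts per site, which the authors did not normalise. Of 8 per-library columns, 4 of normalised values were not used, nor were the authors' own fold changes and p-values. Columns are numbered R1 and R3 and the titles R1 and R2, so columns were assigned to groups only.

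Counts were tested in R 4.3.3 by the robust quasi-likelihood fit of edgeR 4.0.16, after TMM scaling and removal of low sites (filterByExpr, minimum count 10), with Benjamini-Hochberg adjustment over 99560 sites. SE was obtained from log2FC and the square root of the F statistic. Sites were placed by their centre on NCBIM37, the assembly of mm9, with GENCODE vM1; coordinates are printed as in the table, in which 1 site starts at 0, so starts may be counted from 0. Distances are to the nearest start of any transcript of the gene. All sites of the table were placed by the nearest start of any gene. A site was CpG-island-like when GC was over 50% and the CpG ratio over 0.6 in the central 500 bp. Scaling along site strength fitted a loess curve (span 0.3) per library.

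The text names promoter sites with at least 20 mean normalised reads, the strongest site of each locus and every called site, and of the other lists up to 4 called promoter sites, or that with the smallest p. The members and lists were chosen with earlier results of these data known. Alternatives were DESeq2 1.42.0, other scalings, count filters, fold thresholds, flanks and promoter windows, a replicate block, and leaving out each library. Site reads per library ranged from 3126722 to 9280701, and counts below about 10 in a -HOT library carry wide counting error.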

Additional observations from a re-analysis of the deposited data

How the results depend on the processing

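The refits with other settings left the direction of all 3 lost and both gained sites as it was. Of the 12 sites with over 100 reads, 7 were lower in the main fit and 1 with scaling along site strength. The calls at both gained sites and at the upstream Sesn1 site also depended on the setting. The Btg2 and Sesn1 intron sites kept a log2FC below -1 in all 12 refits. With scaling along site strength 3 sites were lost as well, but the upstream Sesn1 site gave way to that 4858 bp upstream of Trp53. No member site was gained with scaling along site strength and GC (0) or when any library was left out (0 to 0). The count was also 0 with a mean of at least 20 counts (0), with DESeq2 (0) and within gene bodies alone (0), but there the gained sites were filtered out, had no adjusted p or lay outside the gene bodies. Lost sites numbered 11 without a fold threshold, 6 at an absolute log2FC above 0.58, 6 within 50 kb, and 2 to 3 when a library was left out. Lost promoter sites numbered 6 and 5 at these fold thresholds, 1 within 1000 bp of a start, and 2 to 3 with a library left out. Lost promoter sites of the other lists numbered 7 with scaling along site strength, 6 with GC as well, 21 and 11 at the fold thresholds, and 3 to 6 with a library left out. Gained ones numbered 1 with total counts, 2 and 2 at the fold thresholds, and 0 to 1 with a library left out. The median log2FC was -0.27 within 50 kb and -0.27 to -0.20 with a library left out. The log2 ratio of summed reads was -0.17 with scaling along site strength, -0.14 with GC as well, and -0.38 to -0.28 with a library left out. The log2FC turned at the Mdm2 start with strength and GC (0.29). It turned at the Mdm4 site with total counts (0.033), strength (0.067), strength and GC (0.027), and without the -HOT library R1 or the +HOT library R1 (leaving out 1 library gave -0.12 to 0.11). It also turned at Sesn2 at 2551 bp upstream without the -HOT library R1 (0.015) or the +HOT library R3 (0.068, the range with 1 library left out being -0.28 to 0.068), and at Gadd45b with strength (0.059) and strength and GC (0.20). The cause was not tested. With 1 library left out, the lone library of its group was assumed to vary like the others. DESeq2 gave an adjusted p to 27 of the 47 sites. Deviations of same-numbered libraries from their group means correlated with r = 0.0287. This cannot decide whether the numbers pair them, since with 2 libraries per group the R3 deviations only mirror those of R1. With the replicate number as a block 3 sites were lost and 2 gained, as without it, with a median log2FC of -0.19. The block made the downstream Ccng1 site higher (adjusted p = 0.0449), so that 3 sites were higher in place of 2. Depth limits the gained sites, whose -HOT counts were between 3 and 6.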
